A study of Mus musculus with 6 samples.

Results

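The genes of leukemia inhibitory factor (LIF) and gp130 cytokine signalling were examined by RNA sequencing of whole mouse uteri on gestational day 4. They were found by gene symbol as 10 of 21936 rows in each library: the ligand genes Lif, Il6 and Il11, the receptor genes Lifr, Osmr, Il6ra, Il11ra1 and Il6st, the transcription factor gene Stat3 and its inhibitor gene Socs3. The 3 libraries labelled Mettl3 d/d were compared with the 3 labelled Mettl3 f/f. The product of Mettl3 is the methyltransferase that places N6-methyladenosine on RNA. The labels do not spell out the alleles; in mouse genetics f/f commonly stands for a floxed and d/d for a deleted allele. All uteri came from females aged 6 to 8 weeks, mated with fertile males, with the day of the vaginal plug counted as day 1. The labels give neither the strain, nor the Cre driver, nor the deleted exons, nor whether each library is 1 animal, so p-values reflect only how far these libraries vary, which may be technical.

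LIF and its relatives are secreted cytokines that signal through a shared receptor chain, gp130, encoded by Il6st. A ligand first selects its partner chain: the LIF receptor for LIF, the oncostatin M receptor for oncostatin M, and the ligand-specific receptors for interleukin 6 and interleukin 11. Kinases of the JAK family bound to the receptors then phosphorylate STAT3, which enters the nucleus and activates target genes, among them Socs3, whose product shuts the receptor down. In mice, LIF made by the uterine glands just before implantation is required for the embryo to attach, and the interleukin 11 receptor is required for the decidual response that follows.

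The libraries labelled d/d differed more from each other than the f/f libraries did. The median SD of a gene over the libraries was 0.301 in the d/d and 0.126 in the f/f libraries on the log2 scale, and the Spearman correlation over genes was 0.870 to 0.916 among d/d and 0.978 to 0.989 among f/f libraries. Values are FPKM, fragments scaled to gene length and to the mapped total, so levels can be compared between genes. The unit was inferred, and the depth in reads is unknown, so no counting interval can be given. Mettl3 was at 42.9, 30.1 and 46.5 FPKM in the d/d libraries and at 30.3, 29.8 and 26.3 FPKM in the f/f libraries, so the label d/d did not go with a lower level. A value over the whole gene need not show a deleted exon, so d/d and f/f stand for the labels throughout. The uterine genes Pgr and Esr1 were present in all 6 libraries (17.3 to 49.2 and 37.5 to 53.8 FPKM). In RNA of a whole organ, fewer cells of a type and less RNA per cell cannot be told apart.

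The promoter stretch before a RefSeq start is shown for 2 of these genes. Lifr was 1 of the 2 receptor genes that rose, and Socs3 carries the STAT-type motif TTCNNNGAA, which reads the same on both strands. The bases lie upstream of that RefSeq start in GRCm38.p6 and outside every exon that GENCODE M21 annotates for the gene. Both stretches lie within the span of the GENCODE gene, which begins further upstream. They read 5′ to 3′ on the strand of the gene, with the motif in capitals.
Socs3, chr11:117969452-117969616, minus strand: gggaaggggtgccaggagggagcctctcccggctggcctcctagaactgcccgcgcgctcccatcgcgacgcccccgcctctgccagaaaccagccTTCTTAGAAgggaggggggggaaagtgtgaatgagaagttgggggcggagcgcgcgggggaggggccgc
Lifr, chr15:7129322-7129558, plus strand: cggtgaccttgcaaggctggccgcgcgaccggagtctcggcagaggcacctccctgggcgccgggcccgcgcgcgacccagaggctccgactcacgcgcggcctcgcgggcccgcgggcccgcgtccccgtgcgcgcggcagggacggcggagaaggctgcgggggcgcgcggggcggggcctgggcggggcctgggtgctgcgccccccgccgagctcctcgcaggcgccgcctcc

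The single match in Socs3, TTCTTAGAA, begins 154 bases before the RefSeq start, which lies beyond the end of the printed stretch. Of the 13 promoter entries of the 10 genes it was the only match within 250 bases, and 7.02% of all 32851 promoters of that length held one. The Lifr stretch held none and was 82.7% G or C, against 70.3% for the Socs3 stretch. A second RefSeq entry of Lifr (chr15:7140292-7140541, 50.8% G or C) also held none and is not shown. The Osmr window begins within an annotated exon and is not shown. In the wider pathway 5 of 59 promoters held it (8.47%), 12 bases before the start in Gab1, 42 in Icam1, 116 in Steap4, 191 in Il31ra and 244 in Tnfrsf1a. A match describes letters only and says nothing about binding in these uteri.

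Of the receptor genes, those for LIF and oncostatin M were higher in the labelled d/d uteri, about 3-fold each, while their shared partner Il6st did not pass the test. A gene was tested if it reached 1 FPKM in at least 3 of the 6 libraries, with limma on log2(FPKM + 1) and Benjamini-Hochberg adjustment over all genes, and called at an adjusted p under 0.05. Of the 10 genes, 8 were tested, 2 were higher (Lifr and Osmr), 0 were lower and 6 did not pass. Among all 12979 genes tested, 7.30% were called, 3.49% higher and 3.81% lower.

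Lifr (ENSMUSG00000054263, chromosome 15, 7090614 to 7197489, plus strand) encodes the chain that binds LIF. It stood at 20.0, 10.1 and 16.8 FPKM in d/d replicates 1, 2 and 3, against 4.04, 6.24 and 5.11 FPKM in f/f replicates 1, 2 and 3. The groups did not overlap, and d/d replicate 2 lay nearest to the f/f libraries. The mean was 15.7 ± 5.06 FPKM in d/d and 5.13 ± 1.10 FPKM in f/f libraries (SD, n = 3 each), 3.05-fold higher. By limma, the difference on the log2(FPKM + 1) scale, called the log2 fold change from here on, was 1.41 with an SE of 0.28 and a 95% interval of 0.74 to 2.08 (adjusted p = 0.0371).

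Osmr (ENSMUSG00000022146, chromosome 15, 6813577 to 6874969, minus strand) encodes the oncostatin M receptor and lies 216 kb from Lifr in the annotation. Its d/d replicates 1, 2 and 3 held 15.8, 18.3 and 15.5 FPKM, against 5.52, 7.73 and 2.61 FPKM in f/f replicates 1, 2 and 3. The d/d values were close together and every one was at least 2 times the highest f/f value. The mean was 16.5 ± 1.54 FPKM in d/d and 5.29 ± 2.57 FPKM in f/f libraries (SD, n = 3 each), 3.12-fold higher. By limma, its log2 fold change was 1.57 with an SE of 0.32 and a 95% interval of 0.78 to 2.35 (adjusted p = 0.0419). For Lifr and for Osmr, exact permutation of the libraries (two-sided) gave p = 0.1, the smallest that 3 against 3 allow.

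Both calls were close to the threshold. The call of Osmr was lost with any 1 of the 6 libraries left out (limma adjusted p = 0.0646 to 0.152), and that of Lifr in 5 of the 6 cases (0.0574 to 0.157). It held without d/d replicate 2 (0.0158). The log2 fold changes stayed between 1.22 and 1.68 for Lifr and between 1.21 and 1.85 for Osmr.

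**Figure D1:**
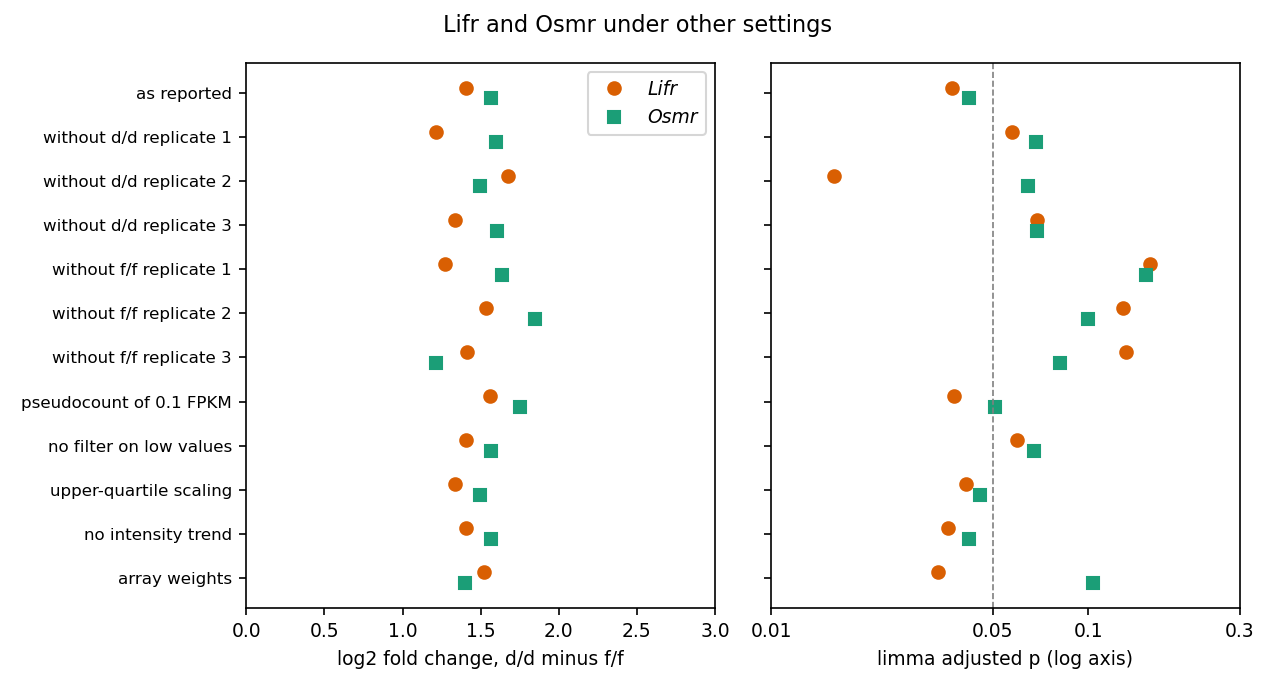
Log2 fold change (left) and limma adjusted p on a log axis (right) of Lifr (circles) and Osmr (squares), as reported and under the alternatives other than the replicate block; the dashed line marks 0.05. All fold changes lie above 1.2 on the log2 scale, while the adjusted p crosses the line for both genes with no filter and under most settings that leave out a library.

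Il6st (ENSMUSG00000021756, chromosome 13, 112464070 to 112510086), the gene of gp130, was far more abundant than Lifr and Osmr. It stood at 55.6, 87.5 and 86.1 FPKM in d/d libraries, against 65.2, 83.6 and 64.7 FPKM in f/f libraries. The groups overlapped. The 95% interval of its log2 fold change, -0.44 to 0.60, was centred on 0.08 (limma adjusted p = 0.839), and the value was just below 0 without d/d replicate 2 or 3. Partner receptors can be set against gp130 within each library, which removes differences in scaling. The ratio of Lifr to Il6st was 0.360, 0.116 and 0.196 in d/d libraries, against 0.0619, 0.0747 and 0.0790 in f/f libraries. That of Osmr to Il6st was 0.283, 0.209 and 0.180 in d/d libraries and 0.0847, 0.0925 and 0.0404 in f/f libraries. The groups overlapped in neither ratio. Each gave an exact permutation p = 0.1, which became 0.35 when adjusted over the 7 ratios computed. The ratio of Osmr to Lifr overlapped between the groups (0.787 to 1.81 in d/d and 0.511 to 1.37 in f/f libraries).

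**Figure D2:**
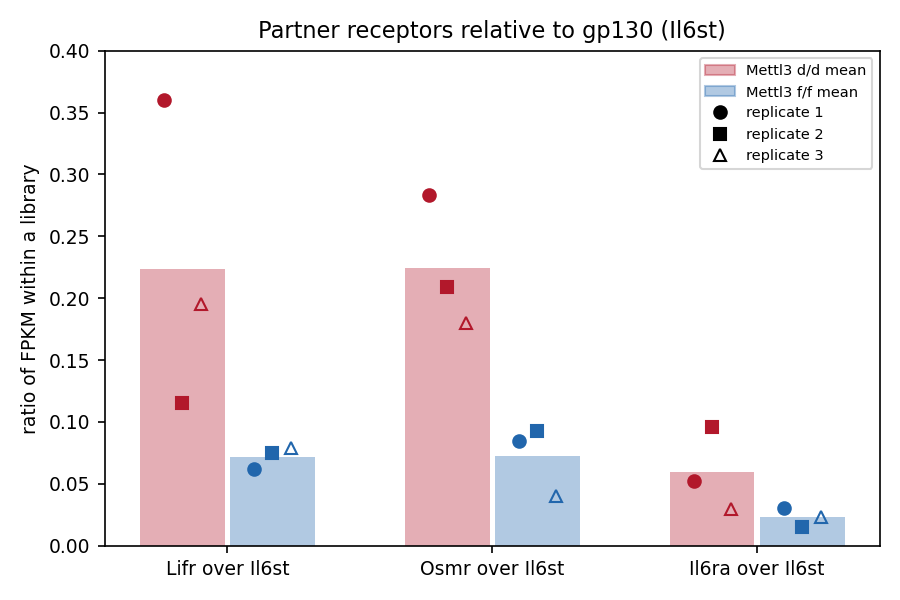
Ratio of the FPKM of Lifr, Osmr and Il6ra to that of Il6st in each library; bars are the means of the Mettl3 d/d (left of each pair) and Mettl3 f/f libraries, and symbols mark replicates 1, 2 and 3. For Lifr and Osmr every d/d value lies above every f/f value, and the Il6ra values of the groups overlap.

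The ligand-specific receptor genes of interleukin 6 and interleukin 11 did not pass, though the libraries of the groups did not overlap in either. Il6ra (ENSMUSG00000027947, chromosome 3, 89864059 to 89913196) was at 2.90, 8.40 and 2.53 FPKM in d/d libraries and at 1.99, 1.26 and 1.51 FPKM in f/f libraries. The log2 fold change of 0.98 had a 95% interval of 0.02 to 1.93 and missed the threshold (limma adjusted p = 0.179). The highest value was that of d/d replicate 2, and without that library the log2 fold change was 0.53. Il11ra1 (ENSMUSG00000073889, chromosome 4, 41699989 to 41769474) was the most abundant of the 10 genes in f/f libraries. It was at 84.3, 81.4 and 59.7 FPKM in d/d libraries, against 98.0, 111 and 105 FPKM in f/f libraries, and its log2 fold change of -0.49 had a 95% interval of -0.88 to -0.10 (limma adjusted p = 0.120). Its close paralog Il11ra2 was listed at 0 in all libraries, and the annotated Il11ra1 gene overlaps 6 others, Galt on the same strand. The sources used here do not say how fragments were shared among them. In all, 4 of the 8 tested genes had groups that did not overlap, 3 higher and 1 lower in d/d. Among all genes tested this was so for 35.9%, with 18.1% higher and 17.8% lower.

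**Figure D3:**
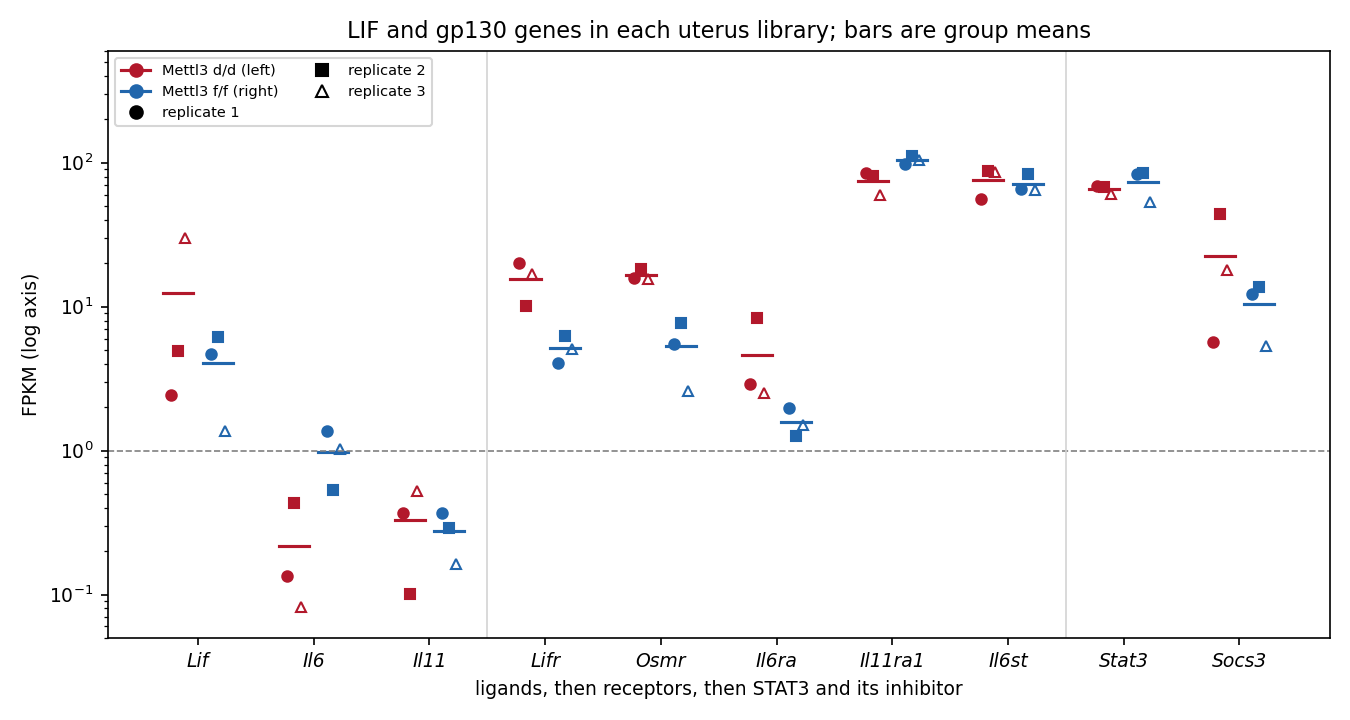
FPKM of the 10 genes on a log axis in each library, Mettl3 d/d (red, left) and Mettl3 f/f (blue, right); symbols mark replicates, short bars the group means and the dashed line 1 FPKM. Lifr and Osmr are separated between the genotypes, Lif and Socs3 are spread widely within d/d, and Il6 and Il11 lie mostly under 1 FPKM.

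Lif itself (ENSMUSG00000034394, chromosome 11, 4257557 to 4272514) did not pass and varied widely. It stood at 2.45, 4.95 and 30.1 FPKM in d/d replicates 1, 2 and 3, against 4.67, 6.20 and 1.36 FPKM in f/f replicates 1, 2 and 3. Only d/d replicate 3 lay outside the f/f range. The mean was 12.5 ± 15.3 FPKM in d/d and 4.08 ± 2.47 FPKM in f/f libraries (SD, n = 3 each). The log2 fold change was 0.91, with a 95% interval of -1.18 to 2.99 (limma adjusted p = 0.544), and without d/d replicate 3 it was -0.018. The interval leaves room for large changes in either direction.

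The marker genes of the uterine glands did not follow Lif. Their summed level was 112, 44.0 and 20.7 FPKM in d/d replicates 1, 2 and 3, against 58.0, 75.8 and 89.3 FPKM in f/f replicates 1, 2 and 3, so the library with the highest Lif had the lowest gland sum. Foxa2, a transcription factor gene of gland cells, was at 10.6, 4.24 and 2.00 FPKM in d/d libraries and at 4.76, 7.73 and 18.4 FPKM in f/f libraries. Cxcl15, a gland chemokine gene, was at 49.1 and 7.87 FPKM in d/d replicates 1 and 2, listed at 0 in d/d replicate 3, and at 15.5, 20.2 and 34.6 FPKM in f/f libraries. Spink1 was at 0.455 FPKM in d/d replicate 1 and listed at 0 in d/d replicates 2 and 3, against 31.0, 36.9 and 20.7 FPKM in f/f libraries. Of the 7 gland markers, 5 were tested, 1 was higher (Aldh1a1) and 2 were lower (Spink1 and Ttr). The shares called over all genes tested were 3.49% higher and 3.81% lower. Aldh1a1, given after its values were seen, was at 51.4, 31.9 and 18.7 FPKM in d/d libraries, against 6.38 ± 2.04 FPKM in f/f libraries (SD, n = 3). It was the largest single part of the gland sum in each d/d library but in no f/f library. In d/d replicate 3 it held 18.7 of the 20.7 FPKM, so the sums understate how low the other markers were there. Ttr was at 0.118 FPKM in d/d replicate 1 and listed at 0 in d/d replicates 2 and 3, against 1.89, 4.70 and 6.94 FPKM in f/f libraries. Prss28 was listed at 0 in 5 of the 6 libraries and was at 0.0585 FPKM in f/f replicate 2. Prss29 was at 0.0637 FPKM in d/d replicate 3, listed at 0 in the other d/d libraries, and at 0.179, 0.296 and 0.0592 FPKM in f/f libraries. The gland sums include these zeros. The part of gland content in the Lif values was not tested.

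Il6 (ENSMUSG00000025746, chromosome 5, 30013114 to 30019981) was low in every library and its d/d values lay below its f/f values. The d/d libraries held 0.135, 0.433 and 0.0812 FPKM, against 1.36, 0.531 and 1.02 FPKM in f/f libraries, and the groups did not overlap. It reached 1 FPKM in 2 libraries and so was not among the genes tested. With no filter on low values its log2 fold change was -0.69 (limma adjusted p = 0.113 over 17739 genes, of which 3.85% were called), and the exact permutation p was 0.1. Il11 (ENSMUSG00000004371, chromosome 7, 4772373 to 4782859) was at 0.367, 0.101 and 0.527 FPKM in d/d libraries and at 0.369, 0.290 and 0.163 FPKM in f/f libraries. The groups overlapped, and no library reached 1 FPKM.

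The other ligand genes of the gp130 family were read from a list of 11 that includes Lif, Il6 and Il11. Of these, 4 were tested, 1 was higher and 0 were lower, where 7.30% of all genes tested were called. Cntf, which encodes ciliary neurotrophic factor, a ligand that acts through the LIF receptor and gp130, was at 5.96, 5.50 and 6.01 FPKM in d/d libraries, against 1.68, 1.80 and 1.10 FPKM in f/f libraries. By limma, the log2 fold change was 1.45 with an SE of 0.17 (adjusted p = 0.0135). The annotated Cntf gene lies wholly within Zfp91 on the same strand. Zfp91 was at 27.0 to 32.5 FPKM in d/d and at 29.0 to 34.2 FPKM in f/f libraries, and the sources used here do not say how fragments were shared between the genes. Ctf1, the cardiotrophin 1 gene, was at 13.1, 4.49 and 12.3 FPKM in d/d libraries and at 21.3, 17.4 and 22.8 FPKM in f/f libraries, which did not pass (limma adjusted p = 0.133).

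Oncostatin M, the ligand of the receptor gene that rose, was scarce. Osm was at 0.631, 5.13 and 0.0591 FPKM in d/d libraries and at 0.306, 0.357 and 0.275 FPKM in f/f libraries, so only d/d replicate 2 exceeded 1 FPKM. Ebi3, a cytokine subunit gene, was at 3.74, 17.8 and 2.35 FPKM in d/d libraries and at 2.45, 2.73 and 1.28 FPKM in f/f libraries (limma adjusted p = 0.317). Its partner Il27 was at 1.29, 2.57 and 0.230 FPKM in d/d libraries and at 0.572, 0.0710 and 0.142 FPKM in f/f libraries. In each of these 3 genes d/d replicate 2 was the highest library. Clcf1 and Il31 were listed at 0 in all libraries.

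Beyond Lifr, Osmr, Il6ra, Il11ra1 and Il6st, 3 more receptor genes were in the list. Of these only Il27ra reached the filter and was tested, and it did not pass (limma adjusted p = 0.885). Cntfr, which encodes the chain that binds ciliary neurotrophic factor, was at 0.802, 2.45 and 1.57 FPKM in d/d libraries and at 0.333, 0.231 and 0.166 FPKM in f/f libraries. It was below the filter, the groups did not overlap, and with no filter the log2 fold change was 1.02 (limma adjusted p = 0.0798). Il27ra was at 1.44, 8.90 and 1.15 FPKM in d/d libraries and at 2.26, 2.13 and 2.63 FPKM in f/f libraries. Il31ra was at 0.126, 0.137 and 1.63 FPKM in d/d libraries and at 0.301, 0.260 and 0.155 FPKM in f/f libraries.

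Downstream of the receptors, Stat3 did not pass. Stat3 (ENSMUSG00000004040, chromosome 11, 100885098 to 100939540) was at 69.1, 67.4 and 61.1 FPKM in d/d libraries and at 83.3, 84.8 and 53.6 FPKM in f/f libraries. The groups overlapped. The log2 fold change of -0.14 had a 95% interval of -0.62 to 0.35 (limma adjusted p = 0.699). These are RNA levels, and the phosphorylation of STAT3, which marks its activity, was not measured. Of 13 signal transducer genes, all were tested, 0 were higher and 0 lower, where 7.30% of all genes tested were called. The lowest unadjusted p belonged to Gab1, an adaptor gene, at 7.24, 7.68 and 6.07 FPKM in d/d libraries, against 10.7, 11.5 and 10.5 FPKM in f/f libraries (limma adjusted p = 0.0617). The kinase genes Jak2 and Jak1 followed. Jak2 was at 37.6 ± 13.7 FPKM in d/d and 63.4 ± 5.37 FPKM in f/f libraries, and Jak1 at 41.7 ± 10.6 FPKM in d/d and 59.2 ± 0.661 FPKM in f/f libraries (limma adjusted p = 0.113 and 0.135, n = 3 each).

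Socs3 (ENSMUSG00000053113, chromosome 11, 117966079 to 117970047), the feedback inhibitor gene with the motif shown above, did not pass and was spread widely in d/d libraries. It stood at 5.67, 44.1 and 17.8 FPKM in d/d replicates 1, 2 and 3, against 12.2, 13.7 and 5.32 FPKM in f/f replicates 1, 2 and 3. The log2 fold change of 0.74 had a 95% interval of -0.99 to 2.46 (limma adjusted p = 0.552). It was highest in d/d replicate 2, whereas Lif was highest in d/d replicate 3. Relative to Stat3 within each library, Socs3 was at 0.0821, 0.654 and 0.292 in d/d libraries and at 0.146, 0.162 and 0.0991 in f/f libraries, which overlapped.

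Most other inhibitor genes did not pass either. Of 15 genes in the list of inhibitors, which also holds the receptor sheddase gene Adam17, all were tested, 2 were higher and 1 was lower, 3 of 15 against 7.30% of all genes tested. Cish, a SOCS family gene known as a STAT5 target, was at 18.2, 16.6 and 19.6 FPKM in d/d libraries, against 7.39, 7.66 and 8.34 FPKM in f/f libraries. The groups were far apart, and by limma the log2 fold change was 1.12 with an SE of 0.13 (adjusted p = 0.0118). Antisense genes overlap Cish, and whether counting used strand is not stated. Socs6 rose to 16.7 ± 3.25 FPKM in d/d, against 7.88 ± 0.427 FPKM in f/f libraries (n = 3 each, limma adjusted p = 0.0271). Socs7 fell to 4.81 ± 2.39 FPKM in d/d, against 12.5 ± 1.21 FPKM in f/f libraries (limma adjusted p = 0.0498). The call of Socs7 was lost under 8 of the 12 alternatives (limma adjusted p = 0.0537 to 0.181), among them each that left out an f/f library or d/d replicate 2 or 3.

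**Figure D4:**
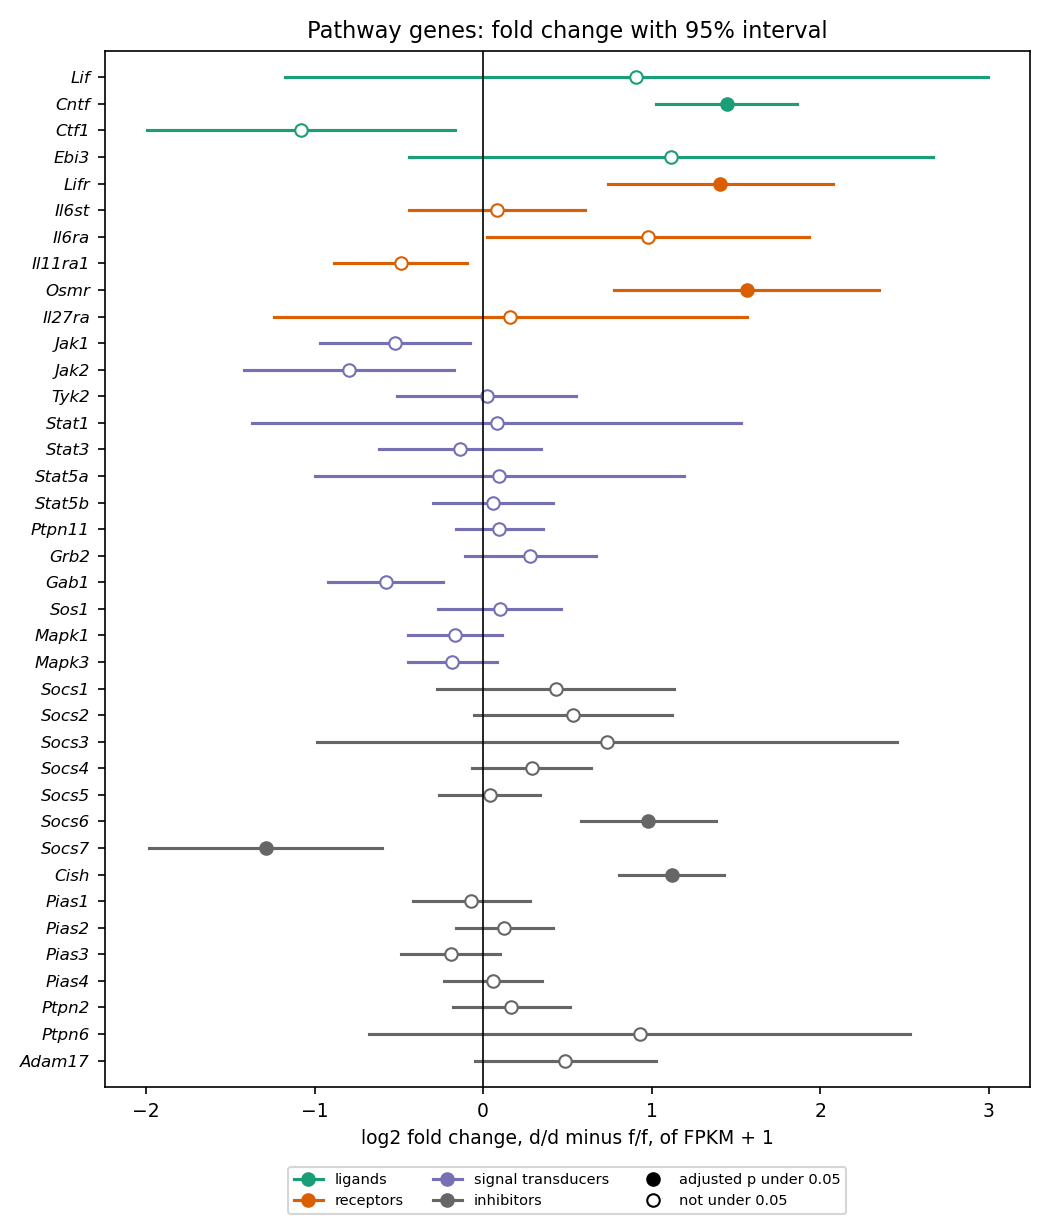
Difference in log2(FPKM + 1) between d/d and f/f libraries with its 95% interval for the tested ligand, receptor, signal transducer and inhibitor genes; filled circles have a limma adjusted p under 0.05. Cntf, Lifr, Osmr, Socs6 and Cish lie to the right of 0, Socs7 to the left, and the intervals of Lif and Socs3 span 0 widely.

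Socs3 and the immune cell marker sums were both highest in d/d replicate 2, but they were not ordered alike in d/d replicates 1 and 3. The summed level of 6 macrophage markers was 969, 4400 and 301 FPKM in d/d replicates 1, 2 and 3, against 291, 252 and 369 FPKM in f/f replicates 1, 2 and 3. That of 6 neutrophil markers was 27.7, 1086 and 26.7 FPKM in d/d libraries and 8.41, 4.02 and 10.5 FPKM in f/f libraries. That of 6 lymphocyte markers was 23.1, 97.8 and 5.93 FPKM in d/d libraries and 45.9, 32.8 and 40.9 FPKM in f/f libraries. All 3 sums were highest in d/d replicate 2, the library with the highest Socs3, Il6st, Osmr, Il6ra, Cntfr, Osm, Ebi3, Il27 and Il27ra. Over the d/d libraries Osmr was ordered as all 3 sums were, with its values close together (15.8, 18.3 and 15.5 FPKM). The macrophage genes Adgre1 and Csf1r were at 80.4 and 141 FPKM in d/d replicate 2. Lyz2, named after its values were seen, held 3738 of the 4400 FPKM of the macrophage sum there. Mrc1, also named after its values were seen, was ordered over the d/d libraries as Socs3 was (10.7, 63.7 and 16.0 FPKM). The other macrophage markers were ordered as their sum was. In d/d replicate 3 the neutrophil gene Ly6g held 25.0 of the 26.7 FPKM of the neutrophil sum. Ly6g was at 3.59 and 5.80 FPKM in d/d replicates 1 and 2, and at 1.15, 0.927 and 1.02 FPKM in f/f libraries. The neutrophil sums include zeros of S100a9 and Mmp8. S100a9 was at 7.09 and 560.1 FPKM in d/d replicates 1 and 2, listed at 0 in d/d replicate 3, and at 2.63, 0.401 and 4.22 FPKM in f/f libraries. Mmp8 was at 0.0258, 5.27 and 0.110 FPKM in d/d libraries. Its f/f replicates 1 and 3 held 0.0771 and 0.0767 FPKM, and f/f replicate 2 was listed at 0. Of the macrophage markers 1 of 6 was higher (Cd68), and 0 of 4 tested neutrophil and 0 of 4 tested lymphocyte markers were called. Among all genes tested the share called was 7.30%. The part of immune cells in these levels was not tested.

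The markers of the other uterine tissues were read beside the rise of Lifr and Osmr. Epithelial marker sums were 1772, 678 and 2411 FPKM in d/d libraries and 1077, 1057 and 1249 FPKM in f/f libraries, in an order over the d/d libraries that Osmr did not share. Among the epithelial markers, Epcam was higher by the test. Stromal sums were 1441, 3284 and 2342 FPKM in d/d and 2504, 2646 and 2470 FPKM in f/f libraries, with 1 of 7 lower (Hoxa11). Smooth muscle sums were 1028, 1961 and 4648 FPKM in d/d and 3570, 5740 and 2349 FPKM in f/f libraries, with 0 of 6 called. Endothelial sums were 154, 196 and 108 FPKM in d/d and 293, 330 and 213 FPKM in f/f libraries, with 1 of 6 lower (Cdh5). Among all genes tested, 3.49% were called higher and 3.81% lower. Lifr was lowest among the d/d libraries in replicate 2, as the epithelial sum was. Osmr was ordered over the d/d libraries as the endothelial and the immune cell sums were. The part of tissue makeup in the rise of Lifr and Osmr was not tested.

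Most genes known as targets of STAT3 did not pass the test. Of 23 listed genes, which include Socs3, all were tested. The test called 3 higher and 1 lower, and 19 did not pass, so 4 of 23 were called against 7.30% of all genes tested. Their median log2 fold change was 0.58, against 0.02 over all genes tested. Library by library, the median of these genes lay 0.17, 1.41 and 0.41 above the f/f mean in d/d replicates 1, 2 and 3 on the log2 scale. It was by far the highest in d/d replicate 2, the library with the high macrophage and neutrophil sums. Pim1, a survival kinase gene, was at 20.3, 58.4 and 48.5 FPKM in d/d libraries, against 11.3, 11.9 and 6.78 FPKM in f/f libraries (log2 fold change 1.89, limma adjusted p = 0.0498). The call of Pim1 was lost under 11 of the 12 alternatives (limma adjusted p = 0.0506 to 0.164) and held without d/d replicate 1. The lipocalin gene Lcn2 was at 202, 1992 and 2702 FPKM in d/d libraries, against 6.24, 5.77 and 15.9 FPKM in f/f libraries. Cebpb, a transcription factor gene, was at 49.4, 137 and 106 FPKM in d/d libraries, against 24.8, 28.1 and 13.9 FPKM in f/f libraries (limma adjusted p = 0.0454). That call was lost under 8 of the 12 alternatives (0.0614 to 0.154). In Pim1 and Cebpb, as in Socs3, d/d replicate 2 was the highest and d/d replicate 1 the lowest of the d/d libraries. Myc, a growth regulator gene, went the other way and fell to 29.2 ± 3.55 FPKM in d/d, against 73.9 ± 9.02 FPKM in f/f libraries (SD, n = 3 each, limma adjusted p = 0.0116).

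Saa3, named after its values were seen, was at 1859 FPKM in d/d replicate 2, at 1.93 and 3.55 FPKM in d/d replicates 1 and 3, and at 0.864, 1.74 and 2.64 FPKM in f/f libraries. It encodes an acute phase protein, and the library in which it was high is the one with the high immune marker sums.

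**Figure D5:**
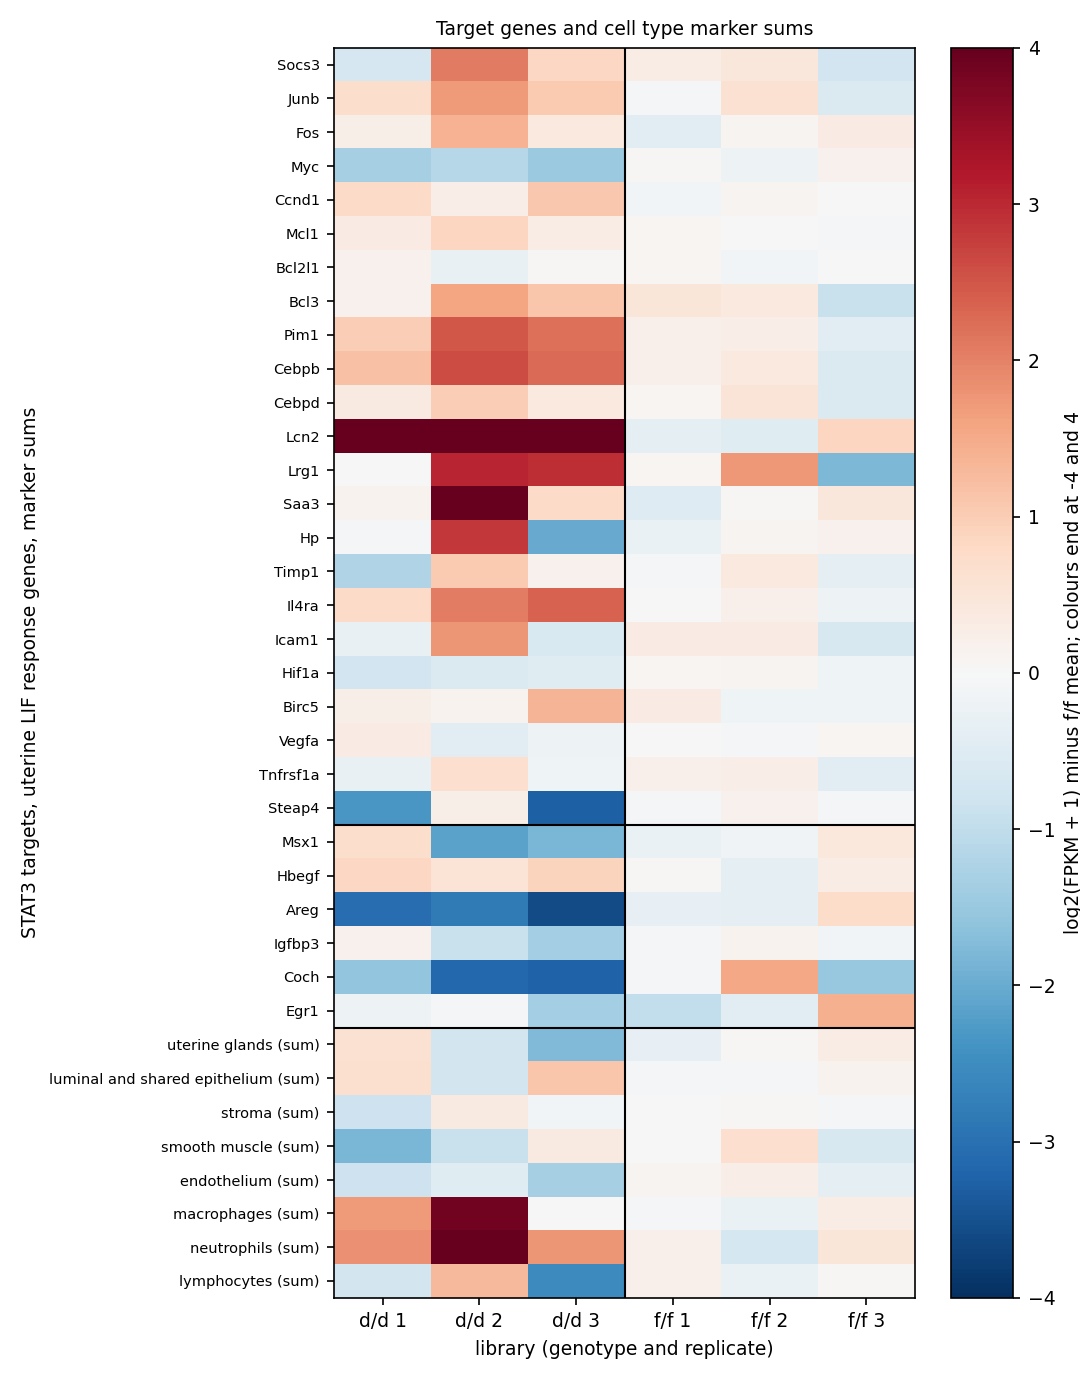
Colour shows log2(FPKM + 1) of each gene or marker sum minus its mean over the f/f libraries, in the 3 d/d (left) and 3 f/f (right) libraries; the top block holds STAT3 target genes, the middle block uterine LIF response genes, the bottom block marker sums. Lcn2, Pim1 and Cebpb are high and Myc and Areg low in all d/d libraries, while Saa3 and the macrophage and neutrophil sums stand out in d/d replicate 2.

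Genes that are known to respond to LIF in the mouse uterus, or to stand downstream of it at implantation, were called in 1 case. Of 8 listed, 6 were tested. The test called 0 higher and 1 lower, and 5 did not pass, where 7.30% of all genes tested were called. Their median log2 fold change was -0.89, against 0.02 over all genes tested. The list does not separate genes that LIF raises from any that it lowers, so the median gives no direction of a LIF response. The gene that passed was Areg, an epithelial growth factor gene that progesterone also raises. Areg fell to 0.517, 0.765 and 0.0614 FPKM in d/d libraries, against 8.90, 8.60 and 19.7 FPKM in f/f libraries (log2 fold change -3.15, limma adjusted p = 0.0118). Hbegf, a growth factor gene of the epithelium named after its values were seen, went the other way without passing. It was at 6.13, 4.92 and 6.47 FPKM in d/d libraries, all above the 3.17, 2.16 and 3.92 FPKM in f/f libraries (limma adjusted p = 0.0842). Coch, also named after its values were seen and known in mice as a gene of the luminal epithelium that LIF raises, was at 2.39, 0.130 and 0.0542 FPKM in d/d libraries and at 8.75, 28.4 and 2.52 FPKM in f/f libraries. The groups did not overlap, and the change did not pass (limma adjusted p = 0.108). Ereg, also named after its values were seen, was listed at 0 in the d/d libraries and at 0.0145, 0.0862 and 0.0719 FPKM in f/f libraries. Msx1, a homeobox gene also named after its values were seen, was at 374, 51.0 and 63.1 FPKM in d/d libraries. In f/f libraries it was at 189, 205 and 307 FPKM, so the d/d libraries lay on both sides of the f/f range.

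Over all pathway lists, without the 10 genes themselves, 67 genes were listed, 58 were tested, 6 were higher and 3 lower, 9 of 58 in all against 7.30% of all genes tested. Their median log2 fold change was 0.11. No test of the lists was made. The count was 0 without f/f replicate 1 or 2 and 1 without f/f replicate 3, when 0, 30 and 111 genes were called among all genes. The calls of Cntf, Cish, Socs6, Myc and Lcn2 were each lost when any 1 f/f library was left out, and that of Areg without f/f replicate 1 or 2. They held without any 1 d/d library.

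In f/f libraries the 10 genes ranked by mean FPKM from Il11ra1 (105 ± 6.54), through Stat3 (73.9 ± 17.6) and Il6st (71.1 ± 10.8), Socs3 (10.4 ± 4.48), Osmr (5.29 ± 2.57), Lifr (5.13 ± 1.10), Lif (4.08 ± 2.47), Il6ra (1.58 ± 0.370) and Il6 (0.973 ± 0.419) to Il11 (0.274 ± 0.104). Neighbours in this order overlapped between Stat3 and Il6st and all the way from Socs3 through Osmr, Lifr, Lif and Il6ra to Il6, so the order among those is not firm. In d/d libraries Il6st (76.4 ± 18.0), Il11ra1 (75.1 ± 13.4) and Stat3 (65.9 ± 4.20) overlapped at the top, with Socs3 at 22.5 ± 19.6, Osmr at 16.5 ± 1.54 and Lifr at 15.7 ± 5.06. Below them came Lif at 12.5 ± 15.3, Il6ra at 4.61 ± 3.29, Il11 at 0.332 ± 0.215 and Il6 at 0.217 ± 0.190 (SD, n = 3 each).

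The genes whose levels followed those of Lif most closely over the 6 libraries were Rbx1, Ctbp1 and Kcnk5 (Pearson correlation of log2 values 0.997, 0.997 and 0.993). For Lifr they were Pdlim5, Tyro3 and Pold3 (0.997, 0.996 and 0.991). These were picked among 12979 genes over 6 points that share the difference between genotypes, so they are a description only. Of these 6 genes, Tyro3 was called, at 10.4 ± 2.83 FPKM in d/d and 4.28 ± 0.554 FPKM in f/f libraries (limma adjusted p = 0.0451).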

How the data were processed

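Per the labels' protocols, TRIzol gave total RNA of whole uteri, and a TruSeq RNA kit the libraries. For each library the authors deposited a table of gene values, taken here as FPKM. The unit was inferred from decimal values, totals of 535043 to 625575 that differ between libraries, and Cufflinks. Per the submitters' processing notes, the tools were Cufflinks 2.2.1 and HISAT2 2.2.1, with both mm10 and mm9 listed as builds. The sources used here give no annotation, options or use of strand. Depth is unknown. An exact 0 can be a failed estimate, so genes holding one are given by library.

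Of rows sharing a symbol the one with the highest mean was kept (36 removed). The test was two-sided: limma 3.58.1 (R 4.3.3) on log2(FPKM + 1), with genotype as the term and variances moderated along an intensity trend. It was first tried on simulated data in which both groups had the same spread, unlike these libraries. That trial does not show how the test behaves when the spread is unequal. Fold changes on this scale understate those of low genes, and folds are ratios of mean FPKM. Single genes were also put to an exact permutation test. The 10 genes were all named, as were the ligands and receptors, and a few listed genes are not reported here. Other pathway lists gave the genes past the test or up to 3 by p, marker lists up to 4 in list order, and other genes are said to be named after their values were seen. The 10 genes, 6 pathway lists and 8 marker lists (uterine glands, epithelium, stroma, smooth muscle, endothelium, macrophages, neutrophils, lymphocytes) were chosen with earlier results of these data known. Positions are from GENCODE M21 (GRCm38) and promoters from RefSeq (GRCm38.p6), where all 10 symbols matched. Alternatives left out each library, used a pseudocount of 0.1, no filter, upper-quartile scaling, no trend, library weights or a replicate block.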

Additional observations from a re-analysis of the deposited data

How the results depend on the processing

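The 2 calls among the 10 genes (Lifr and Osmr) were 2 with upper-quartile scaling and with no intensity trend. They were 1 with a pseudocount of 0.1 and with library weights, 0 with no filter on low values, and 0 to 1 with 1 library left out. The 947 calls among all genes became 0 to 1367 with 1 library left out (0 without f/f replicate 1, where 2292 genes had an unadjusted p under 0.05), and the 9 calls in the wider pathway became 0 to 13. The calls among all genes were 1005 to 1367 without 1 d/d library and 0 to 111 without 1 f/f library, and the cause was not tested. The replicate numbers did not pair the libraries: the deviations of same-numbered libraries correlated at -0.02, 0.02 and -0.02, and 0 of the 6 libraries was closest to its own number. With a replicate block, 100 genes were called, 0 of the 10 and 1 of the wider pathway. With 1 library left out, the log2 fold change of Lif ranged from -0.018 (without d/d replicate 3) to 1.57, and that of Il6st from -0.028 (without d/d replicate 2; -0.018 without d/d replicate 3) to 0.29. With library weights that of Il6st was -0.065. The cause was not tested. No other log2 fold change among the 8 tested genes and the 9 called genes of the wider pathway changed sign under the 12 alternatives. Upper-quartile scaling moved the median log2 fold change of all genes from 0.02 to -0.05. The unknown depth limits Il6, Il11, Osm and the other genes under 1 FPKM most.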

Other observations

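Several STAT3 target genes had d/d values that did not overlap the f/f values and yet did not pass the test. They were picked after their values were seen. Junb, an immediate early gene, was at 72.9, 146 and 92.0 FPKM in d/d and at 43.1, 68.3 and 29.0 FPKM in f/f libraries (limma adjusted p = 0.114). Il4ra, a receptor gene of interleukins 4 and 13, was at 25.4, 62.8 and 79.0 FPKM in d/d and at 14.5, 16.9 and 12.3 FPKM in f/f libraries (limma adjusted p = 0.0597). Ccnd1, the cyclin D1 gene, averaged 47.5 ± 13.3 FPKM in d/d and 27.9 ± 2.37 FPKM in f/f libraries, and Mcl1, a survival gene, 116 ± 26.9 FPKM in d/d and 80.5 ± 4.32 FPKM in f/f libraries (SD, n = 3 each, limma adjusted p = 0.104 and 0.135). Hif1a, a hypoxia response gene, went the other way, at 61.3 ± 5.97 FPKM in d/d and 93.8 ± 9.76 FPKM in f/f libraries (limma adjusted p = 0.0507). Of the 23 target genes, 7 had all d/d values above and 2 all d/d values below those of the f/f libraries, against 18.1% and 17.8% of all genes tested.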
